A study of Mus musculus with 4 samples.

Results

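The LEF and TCF transcription factors of the mouse, encoded by Lef1, Tcf7, Tcf7l1 and Tcf7l2, were followed across the cell classes of intestinal adenomas. These are 4 of the 27514 genes found in the gene tables of all 4 single-cell RNA-seq libraries. They were chosen by name, as the DNA-binding partners of beta-catenin. The libraries came from tumors of C57BL/6 mice that were 11 weeks old and labelled male, with 2 libraries for each genotype. The ApcMin libraries were labelled ApcMin/+;Lef1 +/+, and the VApcMinL libraries were labelled ApcMin/+;Lef1 fl/fl with the Villin-Cre transgene, so that every mouse carried the Min mutation of Apc. The Villin promoter drives Cre in the intestinal epithelium, so T cells and stromal cells lie outside its reach, and the deletion was present from development on. For each library, 3 to 10 tumors were pooled, dissociated with enzymes and loaded without sorting. Each genotype had 1 library made with version 2 of the 10x Genomics 3′ kit and 1 made with version 3, and the libraries are named below by label and kit (ApcMin kit 2, VApcMinL kit 2, ApcMin kit 3 and VApcMinL kit 3, the order used for all values).

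In the absence of a Wnt signal, TCF and LEF proteins sit on DNA with Groucho (Tle) co-repressors and keep target genes silent. When the Apc destruction complex fails, beta-catenin accumulates, enters the nucleus and displaces the co-repressors, and the same proteins then activate the target genes. Tcf7l2 (Tcf4) is the main partner of beta-catenin in the intestinal crypt, Tcf7l1 (Tcf3) acts mostly as a repressor, and Lef1 and Tcf7 (Tcf1) are best known from T lymphocytes and are themselves Wnt target genes. Both Lef1 and Tcf7 can also be read from an internal start that gives a protein without the beta-catenin binding domain.

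The libraries held 44660305, 49009488, 98714025 and 128247396 unique molecular identifiers (UMIs), each UMI standing for 1 captured transcript. Barcodes with at least 2000 UMIs, of which at most 20% were mitochondrial, were kept, leaving 2472, 2534, 2070 and 4216. The mitochondrial limit removed 61.6% of barcodes in ApcMin kit 3 and 20.4 to 26.6% in the others. Between 0 and 9 barcodes were shared by any pair of libraries. Marker genes then placed 2393 barcodes in an adenoma class (Notum, Wif1, Nkd1, Prox1, Sp5, Dkk3, Wnt6 and Wnt10a), 256 in a crypt class (Olfm4, Slc12a2, Cdca7, Ascl2, Smoc2 and Rgmb, with 0 UMIs of the adenoma markers), 2776 in an enterocyte class (Alpi, Apoa1, Fabp1 and others), 548 in a secretory class (goblet, Paneth, enteroendocrine and tuft markers), 467 in a T class (Cd3d, Cd3e, Lck and others) and 392 in a stromal class (fibroblast and endothelial markers). No member gene took part in these gates. Levels are given in CPM, the UMIs of the gene per 1000000 UMIs of the class in that library. The adenoma markers are themselves Wnt feedback genes, and the crypt class lacks them by construction. The defining crypt stem cell gene Olfm4 stood at 1607 and 1892 CPM in the crypt class of the kit 3 libraries but at 29.2 and 17.6 in those of kit 2. All 6 crypt markers were detected in the crypt class of every library, with a summed level of 821, 966, 2410.2 and 2921 CPM. All 8 adenoma markers were detected in the adenoma class of every library, with a summed level of 638, 2126, 1940.3 and 723 CPM.

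Lef1, the targeted gene, was detected in the libraries labelled VApcMinL. It gave 339 and 1122 UMIs in their adenoma class, or 33.2 CPM in kit 2 and 30.0 CPM in kit 3, against 90 and 487 UMIs, or 14.4 and 43.7 CPM, in those labelled ApcMin, so its level under the VApcMinL label was higher in kit 2 and lower in kit 3. The counts come from the 3′ end of the transcript, so a transcript that had lost its floxed part would still be counted, and the deletion cannot be read from them. The libraries labelled VApcMinL also held the X-inactivation transcript Xist at 1209.5 and 335 CPM in adenoma barcodes, against 0 and 0.0897 in those labelled ApcMin, and the Y-linked Ddx3y at 0 in kit 2 and 22.8 CPM in kit 3, against 30.6 and 30.2, although all samples carried the label male. Directions between genotypes below are therefore directions between labels.

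Lef1 lies on the plus strand of chromosome 3 (GRCm38 with GENCODE vM21, chr3:131110471-131224356, 8 annotated transcripts), and Tcf7 on the minus strand of chromosome 11 (chr11:52252371-52283014, 2 transcripts). Tcf7l1 lies on the minus strand of chromosome 6 (chr6:72626378-72789254, 5 transcripts), and Tcf7l2 on the plus strand of chromosome 19 (chr19:55741820-55933654, 22 transcripts). The core recognition letters of TCF and LEF proteins, CTTTGA with its variant CTTTGT, were searched on both strands in the 250 bases before each RefSeq start. They occur in 27.6% of all 32851 windows listed, so a match is common. Of the 9 windows of the 4 members 3 held a match, and the one not shown, before the start of Tcf7l1, overlaps an annotated exon. The other 2 windows lie inside the gene bodies and overlap no annotated exon, and they are shown as the windows with a match outside annotated exons. Capitals mark the matches, and both are written 5′ to 3′ on the plus strand from GRCm38.p6. The Lef1 window (chr3:131156044-131156293) has 3 matches, at 180, 146 and 120 bases before the start. The Tcf7l2 window (chr19:55895071-55895320) has 1 match, at 14 bases before the start. A match of letters is not a bound site, and 3′ counts do not tell which start a transcript came from.
Lef1 internal start: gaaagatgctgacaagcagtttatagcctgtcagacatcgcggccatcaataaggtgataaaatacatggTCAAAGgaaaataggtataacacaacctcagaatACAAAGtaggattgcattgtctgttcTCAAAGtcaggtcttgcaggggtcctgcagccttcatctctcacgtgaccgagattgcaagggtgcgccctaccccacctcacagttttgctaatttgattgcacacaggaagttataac
Tcf7l2 internal start: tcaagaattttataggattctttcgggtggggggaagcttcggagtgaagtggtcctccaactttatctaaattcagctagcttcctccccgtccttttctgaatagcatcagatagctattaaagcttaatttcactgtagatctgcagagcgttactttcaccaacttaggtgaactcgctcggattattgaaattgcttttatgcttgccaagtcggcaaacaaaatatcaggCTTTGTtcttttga

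Lef1 was highest in the adenoma and T classes. Its level in the adenoma class was 14.4, 33.2, 43.7 and 30.0 CPM (30.3 ± 12.1, SD, n = 4 libraries). In the crypt class it was 0.585, 1.76, 0 and 2.26, from 1, 1, 0 and 4 UMIs, and in enterocytes 0, 0.860, 0.517 and 1.74. Every adenoma value lay above every crypt and enterocyte value of the same gene. The 0 of ApcMin kit 2 enterocytes came from 324 barcodes and allows up to 0.895 CPM, and that of ApcMin kit 3 crypt barcodes came from 36 and allows up to 2.43 CPM. In the secretory class Lef1 stood at 1.74, 5.73, 1.52 and 5.50 CPM, and in the stromal class between 1.48 and 6.70, from 11 UMIs in all. T barcodes gave 19.4, 8.20, 22.6 and 25.6 from 7, 4, 6 and 12 UMIs, a range that overlapped the adenoma range. Within the stromal class, fibroblast barcodes held all 11 UMIs and the 160 endothelial barcodes held 0, which allows up to 2.97 CPM. Free RNA, measured in barcodes with at most 100 UMIs, held Lef1 at 8.82, 13.7, 5.98 and 8.55 CPM, above the crypt, enterocyte, secretory and stromal levels in every library. The T level lay below free RNA in VApcMinL kit 2 (8.20 against 13.7) and above it in the other libraries.

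**Figure D1:**
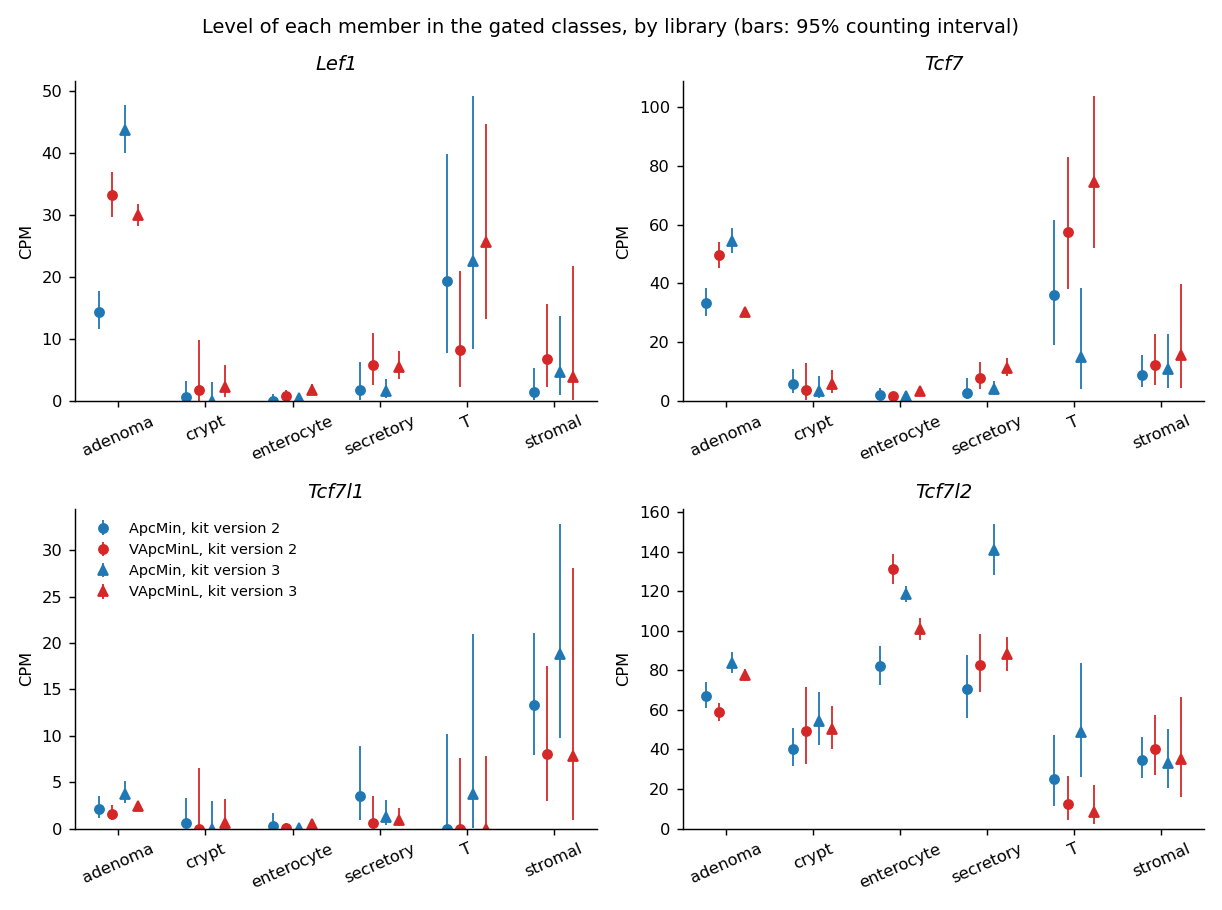
Level of each member gene in CPM, for the 6 marker-gated classes, with 1 point per library (4 libraries, 2 labels and 2 kit versions) on axes of their own for each gene and bars for the 95% counting interval. Lef1 and Tcf7 sit high in the adenoma and T classes, Tcf7l1 in the stromal class, and Tcf7l2 in the enterocyte, secretory and adenoma classes.

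Tcf7 followed the same order of classes with the T class first. In adenoma barcodes it stood at 33.4, 49.5, 54.5 and 30.2 CPM (41.9 ± 11.9), from 209 to 1128 UMIs. In T barcodes it stood at 35.9, 57.4, 15.1 and 74.6, with 4 UMIs behind the lowest value, and the 2 ranges overlapped. The crypt class held 5.85, 3.53, 3.25 and 5.66 and the enterocytes 2.09, 1.61, 1.59 and 3.25, all below every adenoma value. Secretory barcodes held 2.61, 7.64, 3.94 and 11.2, and among them the 88 Paneth barcodes, the antimicrobial cells of the crypt base, held 6.50, 23.7, 6.93 and 17.9. Stromal barcodes held between 8.90 and 15.6, with 31 of the 32 UMIs in fibroblasts. Of the 467 T barcodes, 343 were of cytotoxic type (Gzma, Gzmb, Ccl5, Nkg7 and Cd160), and these held Tcf7 at 46.7, 63.3, 24.8 and 87.2. Free RNA held 9.51, 11.9, 6.86 and 12.7.

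Tcf7l2 was detected in all 6 classes and was not highest in the adenoma class. Enterocytes gave 82.0, 131, 119 and 101 CPM (108 ± 21.4) and secretory barcodes 70.6, 82.7, 141 and 88.0. Adenoma barcodes gave 67.2, 58.7, 83.9 and 77.6 (71.9 ± 11.2), and crypt barcodes 40.3, 49.4, 54.4 and 50.4. Enterocyte and secretory ranges overlapped, as did secretory and adenoma ranges, while the lowest adenoma value lay above the highest crypt value. Goblet barcodes, the mucus cells, reached 165 in ApcMin kit 3. Stromal barcodes gave 34.9, 40.2, 32.9 and 35.1. T barcodes gave 24.9, 12.3, 48.9 and 8.53 from 9, 6, 13 and 4 UMIs, below the free RNA level of 45.7, 52.3, 69.1 and 54.8 in each library, and the 343 cytotoxic type barcodes held 6 Tcf7l2 UMIs in all. Crypt and stromal levels of Tcf7l2 also lay below free RNA in every library.

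Tcf7l1 was the sparsest member and the only member that was highest in the stromal class. Stromal barcodes gave 13.3, 8.03, 18.8 and 7.79 CPM (12.0 ± 5.21), from 18, 6, 12 and 2 UMIs. Adenoma barcodes gave 2.08, 1.57, 3.77 and 2.43, and no adenoma value reached the lowest stromal value. The stromal UMIs were shared by endothelial barcodes (20 UMIs, 12.5 to 47.8 CPM) and fibroblasts (18 UMIs, 4.69 to 14.4 CPM). Secretory barcodes held between 0.637 and 3.49, enterocytes between 0.0738 and 0.476, and the crypt class 2 UMIs in all 4 libraries. The T class held 1 UMI, in ApcMin kit 3. Free RNA held 2.32, 2.56, 6.86 and 6.80 CPM, above the adenoma level in every library.

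The difference between the adenoma class and each other class was then tested across 12520 genes on UMIs summed per library and class, with the library as a block (quasi-likelihood test of edgeR, p-values adjusted by Benjamini-Hochberg over all genes). Adenoma over crypt called 33.5% of all genes tested and 3 of the 4 members. Lef1 was higher by 4.62 on the log2 scale (SE 0.54, adjusted p = 3.36e-07) and Tcf7 by 3.02 (SE 0.37, adjusted p = 7.49e-07), in 4 of 4 libraries each. Tcf7l1 was higher by 2.65 (SE 0.82, adjusted p = 0.0149), but its direction in VApcMinL kit 2 is not known. There the 35 crypt barcodes held 0 Tcf7l1 UMIs, and 1 UMI would have stood at 1.76 CPM, above the adenoma level of 1.57. Tcf7l2 differed by 0.47 (SE 0.20, adjusted p = 0.0803) and did not pass. The Tcf7l1 value rests on 2 crypt UMIs, which give a pooled ratio of 6.58 with a 95% counting interval of 1.79 to 54.8. Its call was lost without VApcMinL kit 2 (adjusted p = 0.0594) and without ApcMin kit 3 (adjusted p = 0.0986). In the kit 3 libraries alone, where Olfm4 was high in the crypt class, Lef1 was higher by 4.83 (SE 0.74, adjusted p = 0.00121) and Tcf7 by 3.24 (SE 0.63, adjusted p = 0.00477), while Tcf7l1 (3.02, adjusted p = 0.154) and Tcf7l2 (0.54, adjusted p = 0.235) did not pass. With the adenoma class set instead by stomach type genes that are not Wnt feedback genes (Gpx5, Atp4a, Pnoc, Bpifb5, Wfdc18, Muc6, Pnliprp1 and Gkn1), Lef1 was higher by 4.25 (adjusted p = 1.3e-06). The crypt class was the same in that fit and still lacked the Wnt feedback markers by construction. The comparison is therefore not free of the marker gate, and the part of the gate in the difference was not tested.

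Against enterocytes, where 71.8% of genes were called, all 4 members passed, in different directions. Lef1 was higher in adenoma barcodes by 4.55 (SE 0.37, adjusted p = 8.92e-11), Tcf7 by 3.68 (SE 0.30, adjusted p = 7.61e-11) and Tcf7l1 by 2.81 (SE 0.52, adjusted p = 3.64e-05), and Tcf7l2 fell by 1.24 (SE 0.19, adjusted p = 1.86e-06). Against secretory barcodes, with 38.6% of genes called, Lef1 and Tcf7 were higher by 2.90 (SE 0.38) and 2.43 (SE 0.31), Tcf7l2 fell by 0.66 (SE 0.19, adjusted p = 0.00757), and Tcf7l1 did not pass (0.72, adjusted p = 0.299). Against T barcodes, with 49.9% called, Tcf7l2 alone of the 4 passed, at 1.77 (SE 0.29, adjusted p = 1.94e-05). Lef1 (0.71, SE 0.41, adjusted p = 0.159) and Tcf7 (-0.18, SE 0.31, adjusted p = 0.669) did not pass there. Against stromal barcodes, with 54.3% called, all 4 passed, Lef1 at 2.99 (SE 0.48), Tcf7 at 2.06 (SE 0.36) and Tcf7l2 at 1.16 (SE 0.23), with Tcf7l1 at -2.14 (SE 0.45, adjusted p = 0.000303). T cell genes were scarce in the adenoma class: the 7 T markers used summed to 9.92, 15.5, 3.32 and 3.88 CPM there, against 4200 to 6839 in T barcodes, and Ptprc stood at 0.508 to 1.28.

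**Figure D2:**
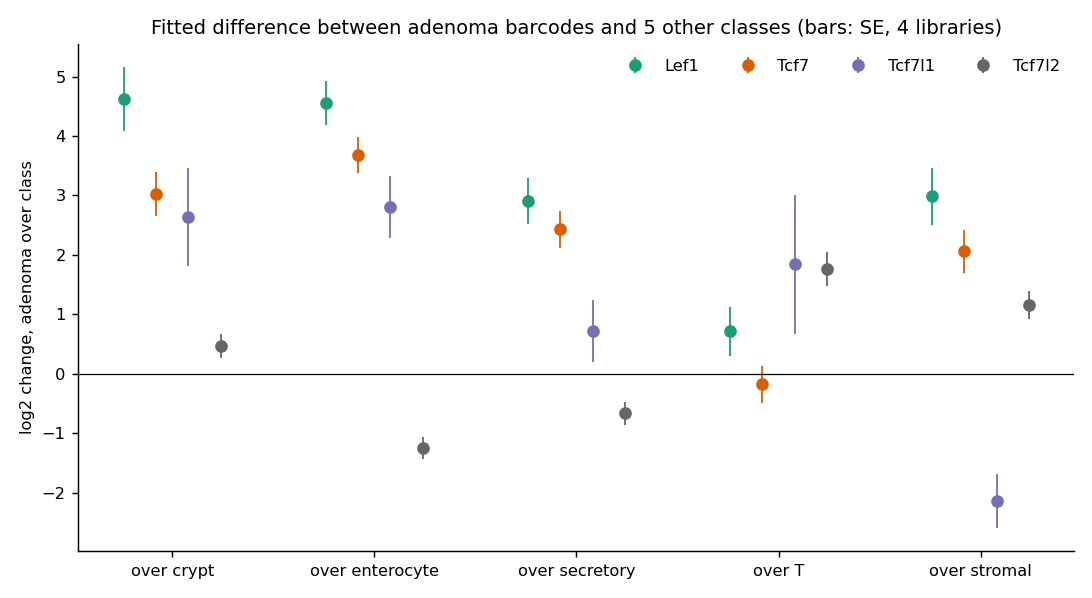
Fitted log2 change of each member gene in adenoma barcodes over 5 other classes, with points for the estimate and bars for 1 standard error, from 4 libraries. Lef1 and Tcf7 lie above 2 against crypt, enterocyte, secretory and stromal classes and near 0 against T cells, while Tcf7l2 lies below 0 against enterocytes and secretory cells and Tcf7l1 below 0 against stromal cells.

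The gates cut a continuous marker level, so barcodes of the adenoma, crypt and remaining epithelial groups were also binned by their adenoma marker UMIs per 10000. This is a description, since the bins follow Wnt feedback genes and deeper barcodes are less likely to show 0 markers. Lef1 was highest in the bin of 15 or more and lowest in the bin of 0 in all 4 libraries. With 0 marker UMIs it stood at 0.309, 0.921, 0 and 1.76 CPM, between 3 and 8 per 10000 at 11.4, 9.27, 13.7 and 23.0, and from 15 on at 36.7, 55.0, 67.0 and 78.8, from 22, 275, 137 and 114 barcodes. Tcf7 went from 4.01, 2.03, 1.63 and 4.82 with 0 marker UMIs to 121, 78.8, 89.9 and 86.0 from 15 on. Tcf7l2 moved less than Lef1 and Tcf7, from 55.0, 68.4, 81.1 and 62.6 to 70.8, 69.3, 87.4 and 92.3. It was not steady in between, with 46.8 in the bin of 8 to 15 in VApcMinL kit 2. Tcf7l1 stayed below 8 in every bin. In the bin of 15 or more, Lef1 was higher in VApcMinL than in ApcMin within both kits and Tcf7 was lower within both, with 22 barcodes behind the ApcMin kit 2 values. The 95% counting intervals of the 2 labels overlapped there for Lef1 in both kits and for Tcf7 in kit 3. In the bin of 8 to 15, Lef1 was lower in VApcMinL in kit 2 (19.6 against 25.4) and higher in kit 3 (41.0 against 35.2). Label differences within bins were not tested.

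**Figure D3:**
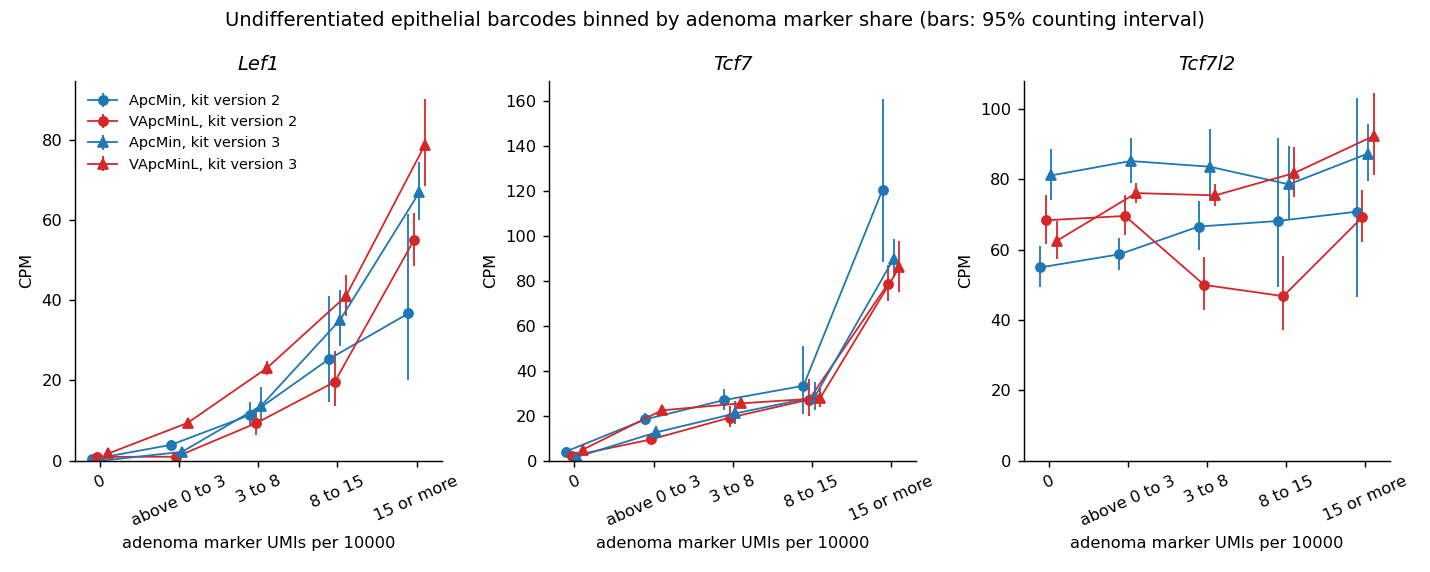
Level of Lef1, Tcf7 and Tcf7l2 in CPM against the bin of adenoma marker UMIs per 10000, with 1 line per library (4 libraries) and bars for the 95% counting interval. Lef1 and Tcf7 rise across the bins in each library and Tcf7l2 changes less.

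Single barcodes were sampled sparsely. After thinning each barcode to 2000 UMIs, Lef1 was detected in 3.21, 8.18, 6.83 and 6.44% of adenoma barcodes, against 0 to 0.269% of enterocytes, a class of the same depth after thinning. Tcf7 was detected in 6.07, 10.6, 10.2 and 6.29% and Tcf7l2 in 12.9, 11.0, 15.7 and 16.3%, and Tcf7l1 in 0.399 to 1.07%. Without thinning, Lef1 was detected in a mean of 42.2% of adenoma barcodes under both labels, with SD 26.8 for ApcMin and 4.09 for VApcMinL. The ApcMin libraries differed widely, with 65 of 280 barcodes positive in kit 2 and 179 of 293 in kit 3. Median depths were 17320 to 31462 UMIs in the adenoma class and 9320.5 to 26295 in enterocytes. With 2 libraries against 2, the exact two-sided permutation test cannot give a p below 0.333, and the thinned adenoma shares of the 4 members gave values from 0.333 to 1.

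Lef1 and Tcf7 were often found in the same adenoma barcode. Among Lef1-positive adenoma barcodes 49.2, 70.1, 72.6 and 56.8% held Tcf7, against 44.2, 41.4, 52.6 and 40.7% of Lef1-negative ones. For Tcf7l2 the same shares were 67.7, 68.0, 83.8 and 83.5% against 69.3, 55.3, 82.5 and 74.0%. Lef1-positive barcodes were deeper, with median UMIs of 22862, 17715, 35032 and 29500 against 18433, 17118, 26813 and 20737.5, and the part of depth in these shares was not tested. In CPM, which takes depth out of the scale, Tcf7 stood at 29.3, 63.5, 62.7 and 34.3 in Lef1-positive barcodes and at 35.0, 38.4, 35.1 and 25.4 in the others, higher in 3 of 4 libraries and lower in ApcMin kit 2. Lef1-positive barcodes also held more adenoma markers in every library, at 7.25, 28.1, 23.3 and 8.25 per 10000 against 6.05, 15.8, 10.4 and 6.05. The part of the markers in the Tcf7 difference was not tested. Lef1 was higher in adenoma barcodes with a UMI of the stem cell receptor gene Lgr5 than in those without, at 18.1 against 12.6, 41.3 against 20.3, 48.8 against 25.0 and 32.5 against 26.9 CPM, a split whose positive side also held more adenoma markers in every library. It was lower in barcodes with a UMI of the Paneth gene Lyz1, at 11.2 against 17.2, 27.1 against 36.6, 37.5 against 48.3 and 28.7 against 32.5, and these held fewer adenoma markers in every library.

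Cycling adenoma barcodes (74, 94, 76 and 388, by Mki67, Top2a, Ube2c, Cdk1, Ccnb1, Birc5, Cenpf and Tpx2) were compared with the other adenoma barcodes of the same library. Lef1 stood at 13.9, 24.1, 36.4 and 27.6 CPM in cycling barcodes and at 14.7, 36.4, 47.1 and 31.6 in the others. Tcf7l2 stood at 62.9, 52.0, 64.0 and 72.3 against 69.8, 61.1, 93.1 and 81.1. Both were lower in cycling barcodes in 4 of 4 libraries. In the fit, which called 35.0% of genes, 2 members passed: Lef1 fell by 0.27 (SE 0.09, edgeR adjusted p = 0.0287) and Tcf7l2 fell by 0.24 (SE 0.07, adjusted p = 0.0233). Tcf7 (-0.25, SE 0.11, adjusted p = 0.0875) and Tcf7l1 (0.05, adjusted p = 0.916) did not pass. Both calls were lost without VApcMinL kit 2 (Lef1 adjusted p = 0.134, Tcf7l2 adjusted p = 0.0506) and without ApcMin kit 3 (adjusted p = 0.0765 and 0.133), and Tcf7 passed without VApcMinL kit 3 (-0.45, adjusted p = 0.00826). Cycling barcodes also held fewer adenoma markers, at 5.61, 14.4, 14.2 and 6.11 per 10000 against 6.85, 23.7, 21.8 and 7.96, and more UMIs, with medians of 24616.5 to 42044.5 against 16127 to 28975, and the part of either in these differences was not tested.

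The comparison the labels were made for, VApcMinL over ApcMin, gave no call for any member in any of the 6 classes. In the adenoma class 0% of 12627 genes were called by edgeR with the kit as a block, while DESeq2 called 4. By edgeR 31 genes had an unadjusted p under 0.05, a smaller share than the 0.05 awaited where no gene differs. There Lef1 differed by 0.30 (SE 0.46), Tcf7 by -0.16 (SE 0.38), Tcf7l1 by -0.53 (SE 0.50) and Tcf7l2 by -0.16 (SE 0.20), all with adjusted p = 1. The 2 kits went opposite ways. Without ApcMin kit 2 the Lef1 value was -0.35, and without ApcMin kit 3 it was 1.00. Lef1 was higher in VApcMinL by 1.205 in kit 2 (95% counting interval 0.87 to 1.56) and lower in kit 3, at -0.54 (-0.70 to -0.39). Tcf7 turned in the same way, at 0.57 (0.33 to 0.81) and -0.85 (-0.996 to -0.71), and so did the summed adenoma markers, which were 638 in ApcMin against 2126 in VApcMinL in kit 2, and 1940.3 against 723 in kit 3. Tcf7l2 was slightly lower in both kits, at -0.19 (-0.38 to -0.01) and -0.11 (-0.22 to -0.00), and Tcf7l1 lower in both, at -0.41 (-1.56 to 0.77) and -0.63 (-1.17 to -0.07). Within a kit the label, the mice, the library and the sex of the mice as read from Xist and Ddx3y cannot be told apart.

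**Figure D4:**
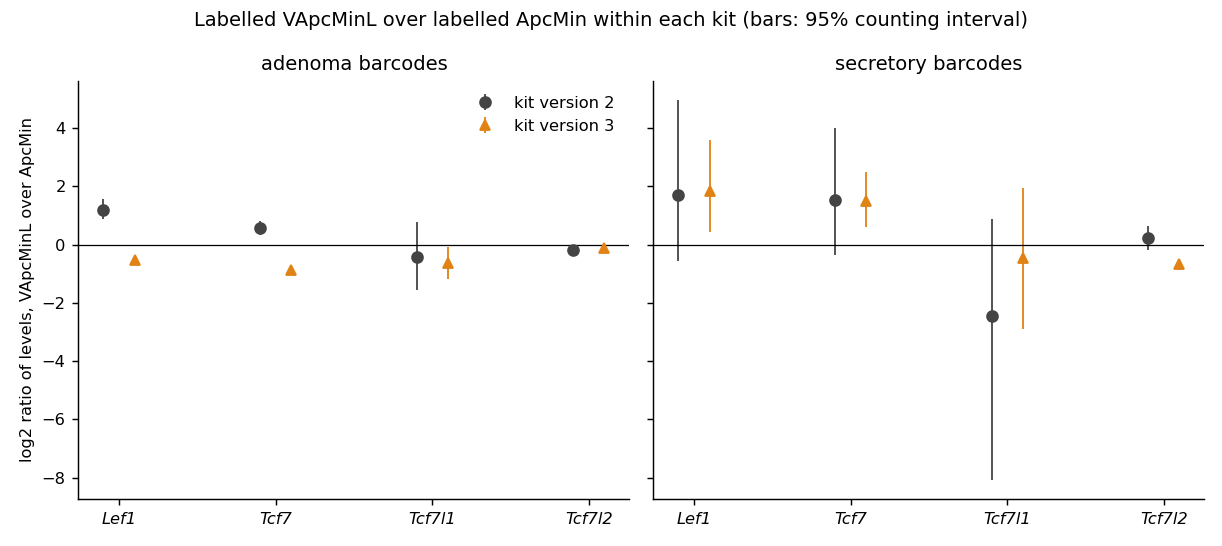
Log2 difference of VApcMinL over ApcMin within each kit version for the 4 member genes in adenoma and secretory barcodes, with points for the estimate and bars for the 95% counting interval, which leaves out the spread between mice. Lef1 and Tcf7 in adenoma barcodes lie above 0 in kit 2 and below 0 in kit 3.

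Outside the adenoma class the members were tested only where they passed the filter on low counts. In crypt barcodes 0.0345% of genes were called, and Tcf7l2, the only member tested, differed by 0.05 (adjusted p = 0.999). In enterocytes 0% were called, and Tcf7 and Tcf7l2 differed by 0.43 and 0.20. Of 11020 genes there, 127 had an unadjusted p under 0.05 by edgeR, again a smaller share than 0.05. In secretory barcodes 0.147% were called. Lef1 there differed by 1.77 (SE 0.74, unadjusted p = 0.0276 by edgeR, adjusted p = 1) and Tcf7 by 1.49 (SE 0.58, unadjusted p = 0.0187 by edgeR, adjusted p = 1), both above 0 within each kit, with Tcf7l2 at -0.25. In kit 2 the 95% counting intervals included 0, at -0.56 to 4.97 for Lef1 and -0.34 to 4.01 for Tcf7. The secretory values rest on 2, 9, 5 and 25 UMIs of Lef1 and 3, 12, 13 and 51 of Tcf7. Goblet, Paneth, enteroendocrine and tuft barcodes are pooled in them. Secretory levels of Lef1 and Tcf7 lay below those of free RNA in every library. Free RNA of both genes was also higher in VApcMinL within each kit. The adenoma markers in secretory barcodes moved with Lef1 and Tcf7, at 79.3 and 112 CPM in ApcMin and 188 and 201 in VApcMinL. The part of the markers, of free RNA and of the mix of secretory cell types in the difference was not tested. In T barcodes, outside the reach of Villin-Cre, 0.375% were called, Tcf7 differed by 1.30 (SE 0.45, edgeR adjusted p = 0.447) and Tcf7l2 differed by -1.73 (SE 0.63, adjusted p = 0.491). In stromal barcodes 0.186% were called, and Tcf7l2, the only member tested, differed by 0.10 (adjusted p = 0.999).

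The genes whose pattern was most like each member were ranked by Pearson's r of log2(CPM + 1), centred within each library, over the 24 library-and-class sums and among genes with at least 20 CPM in their highest class mean. These correlations are descriptions, since the sums share libraries and the class means dominate them. Closest to Lef1 were Nxpe3 (r = 0.92), Tcf7 (0.90), Rnf149 (0.89), Tbpl1 (0.88) and Dip2b (0.87), out of 9195 genes compared. Closest to Tcf7 were Tcf12 (0.93), Arid5a (0.92), Cyba (0.92), Bcl2l11 (0.90) and Lef1 (0.90). Tcf7l1 was closest to Bdnf (0.97), Yipf4 (0.95), Cavin1 (0.95), Kank2 (0.94) and Fstl1 (0.94), of which Cavin1, a caveolar coat gene, and Fstl1, a secreted glycoprotein gene, are known from stromal cells. Tcf7l2 was closest to the hemidesmosome integrin Itgb4 (0.94), Abhd17c (0.93), AA986860 (0.93) and Dopey2 (0.92). The r of Tcf7l2 was -0.33 to Lef1, -0.60 to Tcf7 and -0.094 to Tcf7l1.

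The partners of the TCF and LEF proteins were read from the same adenoma over crypt fit, in which the median gene differed by 0.11 and 33.5% of all genes were called. The counts below are to be read against that share. Of 10 genes for beta-catenin and its co-activators 9 were tested, 3 rose and 0 fell, with a median of 0.33. Ctnnb1, which encodes beta-catenin, rose by 0.70 (SE 0.14, adjusted p = 0.000419), from 192 to 219 CPM in crypt to 306 to 419 in adenoma barcodes, and the adaptor genes Bcl9l and Bcl9 rose by 1.16 and 0.62. Of 15 co-repressors and inhibitors 8 rose and 1 fell (Tle4, -1.09), with a median of 0.65. Sox17, an endoderm factor that binds beta-catenin and TCF proteins, rose by 4.88 (SE 0.46, adjusted p = 1.56e-08), from 3.25 to 17.5 in crypt to 180 to 402 in adenoma. Tle6 rose by 2.51, and Tle2, with 0 UMIs in every crypt sum, was at least 7.09-fold higher over the pooled floor of 3 counts. The 8 genes of the destruction complex, Apc included, gave 0 calls, with a median of 0.24. Of 15 target genes 6 rose and 2 fell (Smoc2 and Lrig1, -2.30 and -1.53), with a median of 0.47, and 3 of the list were gate markers (Sp5, Ascl2 and Smoc2). Sp5, which the gate itself holds at 0 in the crypt class, was at least 149-fold higher. Tnfrsf19, a stem cell receptor gene that was not a gate marker, rose by 4.29 (SE 0.50, adjusted p = 8.33e-07). In the VApcMinL over ApcMin fit of adenoma barcodes none of these lists had a call among 10, 15, 8 and 15 genes tested by edgeR, and their medians were -0.07, -0.04, -0.00 and 0.06 beside 0.01 for all genes.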

How the data were processed

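Adenomas were profiled by 3′ single-cell RNA-seq in 4 libraries. The authors counted reads with Cell Ranger 2.1.1 on mm10 and used Seurat 3.1.1, per the submitters' notes, and the headers of the kit 3 matrices name 3.1.0. The deposited values are raw UMI counts per gene and barcode. Barcodes were gated on marker lists per 10000 UMIs (7 of 11 T markers were in all gene tables), and sums per library and class, leaving out sums under 20 barcodes, were tested with edgeR 4.0.16 (R 4.3.3, TMM, minimum count 10, adjusted p threshold 0.05). DESeq2 1.42.0, other filters, gates, scalings, thinning and removal of the highest Scrublet doublet scores (49, 51, 34 and 142 barcodes) were alternatives, and doublets were otherwise kept. Members and lists were chosen with earlier results of these data known, and gate thresholds after marker distributions had been seen. Named genes were the members, the 5 genes most like each, and up to 3 called genes with the largest change per list, and 1 gene that the rule names is not reported here. Tle4, Lrig1, Ptprc and Xist and the Lgr5 and Lyz1 splits were named after their values were seen.

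Labels tie the replicate number to the kit, so the kit was a block. Deviations of same-numbered libraries from their label means correlated at r = 0.153 over 12627 genes. With 2 libraries per label both kits give the same r by construction, so this is 1 value. In simulated counts with dispersion 0.05, the label contrast in adenoma recovered 32 of 200 genes changed by 1 on the log2 scale (12560 genes tested) and 196 of 200 changed by 2 (12548 genes), and adenoma over crypt recovered 133 (12480 genes) and 200 (12451 genes). The simulated libraries held no difference between kits, whereas Lef1 and Tcf7 turned between kits in the real adenoma sums. The recovery therefore need not hold for such genes. Intervals are exact 95% Poisson or binomial intervals and cover counting error only. Libraries of 1 label differ in kit and mice, and p-values measure only the spread between these libraries.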

Additional observations from a re-analysis of the deposited data

Results flagged for a closer look

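The sign of the Tcf7l2 difference under the same label contrast was not the same in every cell class. In VApcMinL over ApcMin its log2 difference was -0.19 in kit 2 and -0.11 in kit 3 in adenoma barcodes and -1.02 and -2.52 in T barcodes, but 0.20 and 0.091 in stromal barcodes. Both kits had the same sign within each of these classes, and the difference between classes was not tested. None of these Tcf7l2 differences passed the test of edgeR (adjusted p = 1 in adenoma, 0.491 in T and 0.999 in stromal barcodes), and with a mitochondrial limit of 10% the stromal value was -0.074. The T values rest on 4 to 13 Tcf7l2 UMIs per library, and the stromal intervals, -0.51 to 0.90 and -1.22 to 1.28, include 0.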

How the results depend on the processing

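Without the replicate block the member values in adenoma barcodes were 0.17 (Lef1), -0.11 (Tcf7), -0.53 (Tcf7l1) and -0.15 (Tcf7l2), and 0 genes were called in crypt, secretory, T and stromal barcodes, where the blocked fit called 3, 15, 20 and 15. The cause of the changes below was not tested except where fewer samples or UMIs entered the fit. In adenoma barcodes VApcMinL over ApcMin called 0 genes, against 1 with no filter on low counts, 1 after thinning, 1 with the stomach type gate and 4 by DESeq2. With no filter, 48 genes were called in crypt, 34 in enterocyte, 74 in secretory, 75 in T and 63 in stromal barcodes. With a mitochondrial limit of 10% the counts were 24, 1, 7, 5 and 9. With a floor of 5000 UMIs they were 6 in crypt, 1 in enterocyte, 2 in secretory and 1 in stromal barcodes, and with DESeq2 size factors 1 in enterocyte, 27 in secretory and 13 in T barcodes. Leaving out each library in turn gave 0 to 1 genes in adenoma, 0 to 7 in crypt, 0 to 4 in enterocyte, 0 to 36 in secretory, 3 to 70 in T and 0 to 9 in stromal barcodes.

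Between classes, thinning left 1099 genes called in adenoma over crypt, 4830 over enterocyte, 2506 over secretory, 3460 over T and 3173 over stromal barcodes, and 975 for cycling. Kit 3 alone called 2368 over crypt, a floor of 5000 UMIs 1447 over T, and the fits without the library block 3105 over secretory barcodes and 542 for cycling. The Lef1 and Tcf7 calls over crypt kept their direction and side of the threshold in each alternative that could test them, while thinning left Lef1 and Tcf7l1 untested. Tcf7l1 over crypt did not pass with kit 3 alone, chosen after seeing the data (3.02), or with the stomach type gate (2.23), and leaving out a library gave 2.02 to 3.08. Tcf7l2 over crypt passed in the fit of 2 classes (0.47, adjusted p = 0.0129) and with the floor of 5000 UMIs (0.47, adjusted p = 0.0305).

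Signs turned only for members that had not passed. VApcMinL over ApcMin gave 0.0059 for Tcf7 in adenoma barcodes after thinning, and with the mitochondrial limit of 10% -0.020 for Tcf7l2 in crypt, -0.060 for Tcf7 in enterocyte and -0.074 for Tcf7l2 in stromal barcodes. Leaving out a library gave -0.35 to 1.00 for Lef1 and -0.59 to 0.24 for Tcf7 in adenoma barcodes, -0.041 to 0.17 for Tcf7l2 in crypt, -0.12 to 0.76 for Tcf7 and -0.093 to 0.46 for Tcf7l2 in enterocyte, -0.62 to 0.17 in secretory and -0.052 to 0.24 in stromal barcodes. Tcf7 over T cells gave 0.046 with the doubled marker minimum and -0.67 to 0.15 without a library. For cycling, Tcf7l1 gave -0.016 without the library block, -0.030 with the doubled minimum and -0.0013 to 0.31 without a library, and Tcf7 gave 0.0045 after thinning. The Lef1 and Tcf7l2 cycling calls were also lost without the library block, after thinning and with the doubled minimum. Without thinning, the share of positive barcodes (VApcMinL minus ApcMin) turned for Tcf7 in adenoma (-4.76 points), crypt (-3.41 points) and secretory barcodes (6.13 points), Tcf7l2 in crypt (-3.85 points) and Lef1 in stromal barcodes (1.73 points). Of the 5 genes most like each member, Spearman's rho kept 1 for Lef1, 2 for Tcf7, 2 for Tcf7l1 and 1 for Tcf7l2. Of 451 alternative member values 412 kept direction and side of the threshold. Depth limits Tcf7l1 and all T and stromal values, which rest on few UMIs.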

Other observations

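Outside the 6 classes, the members were scarce in B and plasma barcodes (363), with 3 UMIs of Lef1, 3 of Tcf7, 3 of Tcf7l1 and 15 of Tcf7l2 in all. Myeloid and mast barcodes (299) held Tcf7l2 at 30.2 to 55.6 CPM, from 67 UMIs, but 1 UMI of Lef1, 2 of Tcf7 and 0 of Tcf7l1, which allows up to 1.78 CPM.

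The 56 tuft barcodes, chemosensory cells of the epithelium, held 9 Lef1 UMIs at 0, 74.4, 9.50 and 8.75 CPM in the library order of the report, with 4 of the 9 in the 8 barcodes of VApcMinL kit 2. The 65 enteroendocrine barcodes held 9 as well, 8 of them in the 31 barcodes of VApcMinL kit 3. Adenoma barcodes that also expressed stomach type genes held Lef1 at 18.0, 33.7, 46.7 and 33.4 CPM against 9.63, 27.7, 32.0 and 27.3 in those that did not, and their adenoma marker level was higher in every library as well.

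In adenoma barcodes, 15.4, 16.4, 3.07 and 8.72% held no UMI of any of the 4 members and 1.43, 0.599, 6.83 and 2.12% held all 4, the first share being lower and the second higher in each library of greater median adenoma depth.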
